A study of Homo sapiens with 9 samples.

Results

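Iron and 2-oxoglutarate dependent dioxygenases are enzymes that use ferrous iron, molecular oxygen and the metabolite 2-oxoglutarate to oxidise proteins, nucleic acids or lipids. A list of 52 such genes, chosen by symbol, with earlier results of these data known, was looked up in the table of 58735 genes, and all 52 were found. They fell into 7 groups by role, namely 5 hydroxylases linked to hypoxia-inducible factor (HIF), 9 collagen prolyl and lysyl hydroxylases, 14 JmjC histone demethylases, 7 other JmjC proteins, 3 TET enzymes, 9 genes of the ALKBH family with FTO, and 5 genes of the OGFOD, ASPH and PHYH group. Of these, 50 had enough counts to be tested, and EGLN3 and P4HA3 did not.

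The cells were HEYA8, a human ovarian cancer line described in the labels as high-grade serous and of genotype WT, grown in DMEM with serum. DMSO, the solvent control, was compared with sunitinib, which blocks receptor tyrosine kinases such as those of VEGF and PDGF, and with compound 32, each given for 24 h with 3 libraries per treatment. No source used here gives the doses, or how the structures of compound 32 and sunitinib compare, so both compounds were compared as given and not at matched doses. The DMSO and sunitinib samples are stated to be biological replicates and the compound 32 samples are not. The spread among the compound 32 libraries may therefore be technical. All 9 libraries share an estimate of the spread, so this bears on every p-value, those of sunitinib against DMSO included. A single cell line was used.

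These enzymes share a fold in which iron is held at the active site, and succinate and carbon dioxide are released as 2-oxoglutarate is consumed. Because oxygen is a substrate, some of them work as oxygen sensors: the prolyl hydroxylases EGLN1 to EGLN3 mark HIF alpha subunits for destruction through the VHL ubiquitin ligase. Several family members, EGLN1, EGLN3, P4HA1, P4HA2, PLOD2, KDM3A and KDM4B among them, are also known as HIF target genes in many cell types. These are examples and not a full list, and whether HIF acted on any member in these cells was not tested. Others demethylate histones (JmjC enzymes), oxidise 5-methylcytosine in DNA (TET enzymes), or demethylate bases in DNA and RNA (ALKBH enzymes and FTO).

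Library totals lay between 15498101 and 18006171 counts. Sunitinib replicate 3 stood apart. It held 5.36% of its counts in mitochondrial genes against 3.42 to 3.92% in the other 8 libraries, and 6.96% in ribosomal protein genes against 3.71 to 4.52%. Of the epithelial, ovarian and mesenchymal markers checked, KRT8 (627 to 905 CPM), KRT18, KRT7 (64.0 to 231 CPM), PAX8 (114 to 136 CPM), WT1 (4.71 to 13.1 CPM), VIM, CDH2 and ZEB1 were present in every library, EPCAM (0.814 to 2.54 CPM) and KRT19 (0.159 to 1.43 CPM) were near 0, and CDH1 and MUC16 stayed at or below 0.13 and 0.33 CPM. KRT7 rose (log2 fold change 1.63, adjusted p = 5.61e-08) and WT1 fell (-1.27, adjusted p = 1.9e-05) with sunitinib in edgeR. In the same test KRT8 (0.31, adjusted p = 0.00493) and KRT18 (0.29, adjusted p = 0.032) rose with compound 32. ZEB1 fell with sunitinib (-0.33, adjusted p = 0.00208) and with compound 32 (-0.25, adjusted p = 0.0208). The endothelial marker CDH5 rose with sunitinib (0.91, adjusted p = 4.31e-04) and fell with compound 32 (-0.85, adjusted p = 0.00299), PECAM1 and VWF stayed below 2 CPM, and all 4 leukocyte markers were below 1 CPM. The part of these markers in the results was not tested. CPM are counts scaled to a common library size, after correction by TMM factors.

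Promoter sequences are given for members that the results below turn on, with the core letters of the HIF binding motif in capitals. Windows of 250 bases before a RefSeq gene start (GRCh38.p14) were searched for ACGTG and GCGTG on both strands, so that CACGT and CACGC are the same motifs read on the opposite strand and CACGTG counts as ACGTG on both strands. RefSeq windows were found for 47 of the 52 members, and RIOX1, RIOX2, ASPH, P4HA3 and JMJD6 had none. Short stretches of 30 bases around a match are shown for the 4 members below, which were higher with compound 32. They run 5′ to 3′ on the strand of the gene. All 4 stretches lie before a RefSeq start but inside the span between the annotated start and end of their gene.
KDM3A (chr2:86441333-86441362, plus strand): ccgggaggctgtGCGTGtcttgtgagagct
P4HA1 (chr10:73096935-73096964, minus strand): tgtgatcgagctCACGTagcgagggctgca
EGLN1 (chr1:231422288-231422317, minus strand): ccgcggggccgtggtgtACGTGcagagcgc
PLOD1 (chr1:11934637-11934666, plus strand): gcgcgggggaggGCGTGgaggggcggggtg

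Whole windows are shown for KDM4B and PLOD2, which were higher with compound 32, and for KDM4A, which was lower, because none of their bases lies in an exon of the gene.
KDM4B (chr19:4968863-4969112, plus strand): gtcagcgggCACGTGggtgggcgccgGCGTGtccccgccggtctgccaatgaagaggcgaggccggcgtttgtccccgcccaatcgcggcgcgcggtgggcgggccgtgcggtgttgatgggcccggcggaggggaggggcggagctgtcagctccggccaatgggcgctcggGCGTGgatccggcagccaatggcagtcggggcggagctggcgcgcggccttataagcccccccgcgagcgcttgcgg
PLOD2 (chr3:146161185-146161434, minus strand): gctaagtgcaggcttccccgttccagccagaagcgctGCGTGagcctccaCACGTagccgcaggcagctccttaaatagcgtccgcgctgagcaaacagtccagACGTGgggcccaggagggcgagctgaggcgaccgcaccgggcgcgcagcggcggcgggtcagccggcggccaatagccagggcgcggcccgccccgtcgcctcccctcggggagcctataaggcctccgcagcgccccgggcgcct
KDM4A (chr1:43649899-43650148, plus strand): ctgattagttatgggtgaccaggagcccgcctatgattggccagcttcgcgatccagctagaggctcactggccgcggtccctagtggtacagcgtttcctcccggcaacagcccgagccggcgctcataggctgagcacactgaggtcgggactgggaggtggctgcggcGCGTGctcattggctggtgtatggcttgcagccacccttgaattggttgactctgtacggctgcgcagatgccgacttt

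The KDM4B window held a CACGTG 240 bases before the start and GCGTG at 224 and 77 bases. In the PLOD2 window, ACGTG lay 146 bases before the start and, on the opposite strand, 200 bases before it, with GCGTG at 213 bases. The KDM4A window held GCGTG once, 79 bases before the start. Over all members, 42 of 67 windows (62.7%) held either motif, against 49.3% of the windows of protein-coding genes and 43.2% of all windows. ACGTG was found in 20.9% of member windows and in 20.2% of protein-coding ones, and GCGTG in 50.7% and 38.3%. Of the members with a window, either motif was present in 10 of 11 that were higher with compound 32, in 4 of 5 that were lower and in 19 of 30 that were not called. P4HA2 was the higher member without a match. A member was counted if any of its windows held a match, and some members have several windows. These counts of members are therefore not comparable with the shares of windows, and no share by gene was computed over all genes. A match of 5 letters is a description of the sequence and says nothing of binding.

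Levels in DMSO, given as mean CPM per kilobase of gene length, spanned from 136 for PLOD2 to 0.186 for OGFOD2. That length counts all annotated exons of a gene, whether or not these cells use them, so ranks and shares between genes are approximate. OGFOD2 shares 67.3% of its exon bases with AC026362.1 on the same strand and 35.9% with ABCB9 on the other, and no source used here says how reads in shared exons were counted, so its place as the lowest is uncertain. PLOD2, a lysyl hydroxylase of collagen telopeptides, was followed by PLOD1 (58.5), ASPH (36.2), ALKBH5 (27.3) and P4HA1 (23.5). ASPH hydroxylates residues in epidermal growth factor-like domains, and ALKBH5 removes methyl groups from adenosines in RNA. TET1, at 0.251, was the lowest tested member after OGFOD2. Among near relatives, EGLN1 made up 89.9% of the summed per-kilobase level of EGLN1, EGLN2 and EGLN3 in DMSO, and TET3 71.7% of that of the TET genes.

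**Figure D1:**
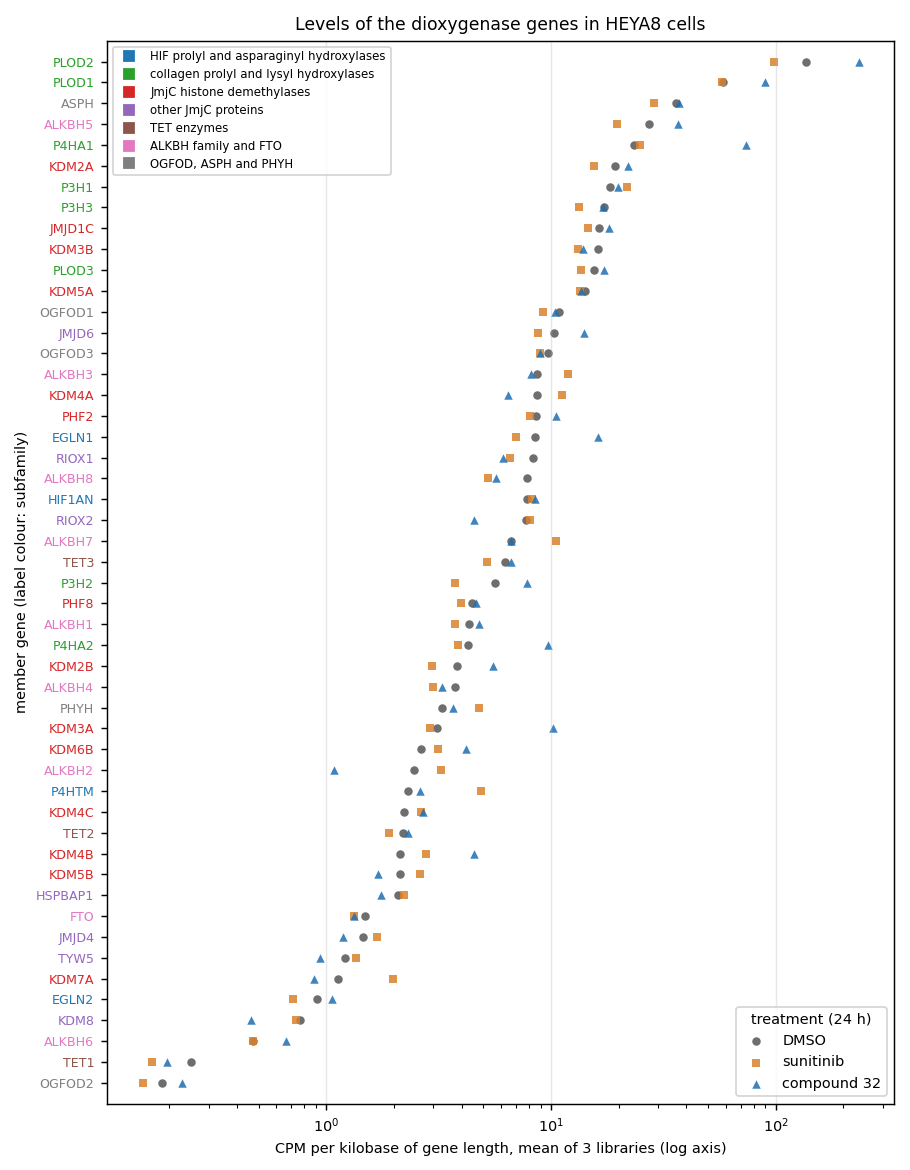
Mean level of each of the 50 tested dioxygenase genes in DMSO, sunitinib and compound 32 (points, 3 libraries each), as CPM per kilobase of gene length on a log axis, with label colour giving the group by role. PLOD2 was the highest in DMSO at 136, and with compound 32 P4HA1 stood at 73.8 against 23.5 in DMSO.

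With compound 32, 12 of the 50 tested members rose and 7 fell against DMSO at an adjusted p under 0.05 in edgeR's quasi-likelihood test, which is 38% of them. Over all 15232 genes tested, 22.3% were called, 12% higher and 10.3% lower. The median log2 fold change was 0.10 over the members and -0.00 over all genes. At 2-fold or more 5 of the 50 tested members were called, against 480 of the 15232 genes tested (3.15%). Of these members, KDM3A, P4HA1, P4HA2 and KDM4B rose and ALKBH2 fell. The collagen hydroxylases had a median of 0.54, with 5 of 8 tested members higher and 0 lower. The other JmjC proteins had a median of -0.37, with 3 of 7 lower and 1 higher. In bulk RNA, fewer cells of a type and less RNA per cell cannot be told apart. Without sunitinib replicate 3, which enters this comparison only through the shared estimate of the spread, 19 members were higher and 10 lower, beside 3359 and 3189 of 15580 genes tested, and all 19 calls held. In addition to the 19, 10 members were called in that fit, namely HIF1AN, P3H1, PLOD3, JMJD1C, KDM2A, KDM3B, KDM4C, KDM7A, PHF2 and KDM8.

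With sunitinib, 10 of 50 members rose and 12 fell against DMSO, which is 44%, where 40.2% of all genes were called (20.3% higher and 19.9% lower). The share of members was close to that background. At 2-fold or more 1 of the 50 members, P4HTM, was called, against 1203 of the 15232 genes tested (7.9%). The median over the members was -0.13, against 0.02 over all genes. Upper-quartile scaling gave 11 members higher and 7 lower, beside 3952 and 2316 of all genes against 3090 and 3036 with TMM. Without sunitinib replicate 3 the members numbered 10 and 16, beside 3908 and 4096 of 15580 genes tested. Without DMSO replicate 1 or 2, 5 or 6 members were higher, and over all genes 2276 or 2392. Of the 22 calls with sunitinib, 20 held without sunitinib replicate 3, and those of ALKBH2 and PHYH did not, while PLOD3, KDM3B, KDM4C, KDM6B, ALKBH1 and ALKBH4 were called in addition. Without it the log2 fold change with sunitinib was 1.06 for P4HTM, -0.23 for EGLN1, -0.49 for PLOD2, -0.55 for P3H2, -0.41 for ALKBH5 and 0.63 for ALKBH7. These comparisons share the DMSO libraries, so the values of both compounds are given side by side below and were not correlated. The difference between compounds was tested as its own contrast.

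**Figure D2:**
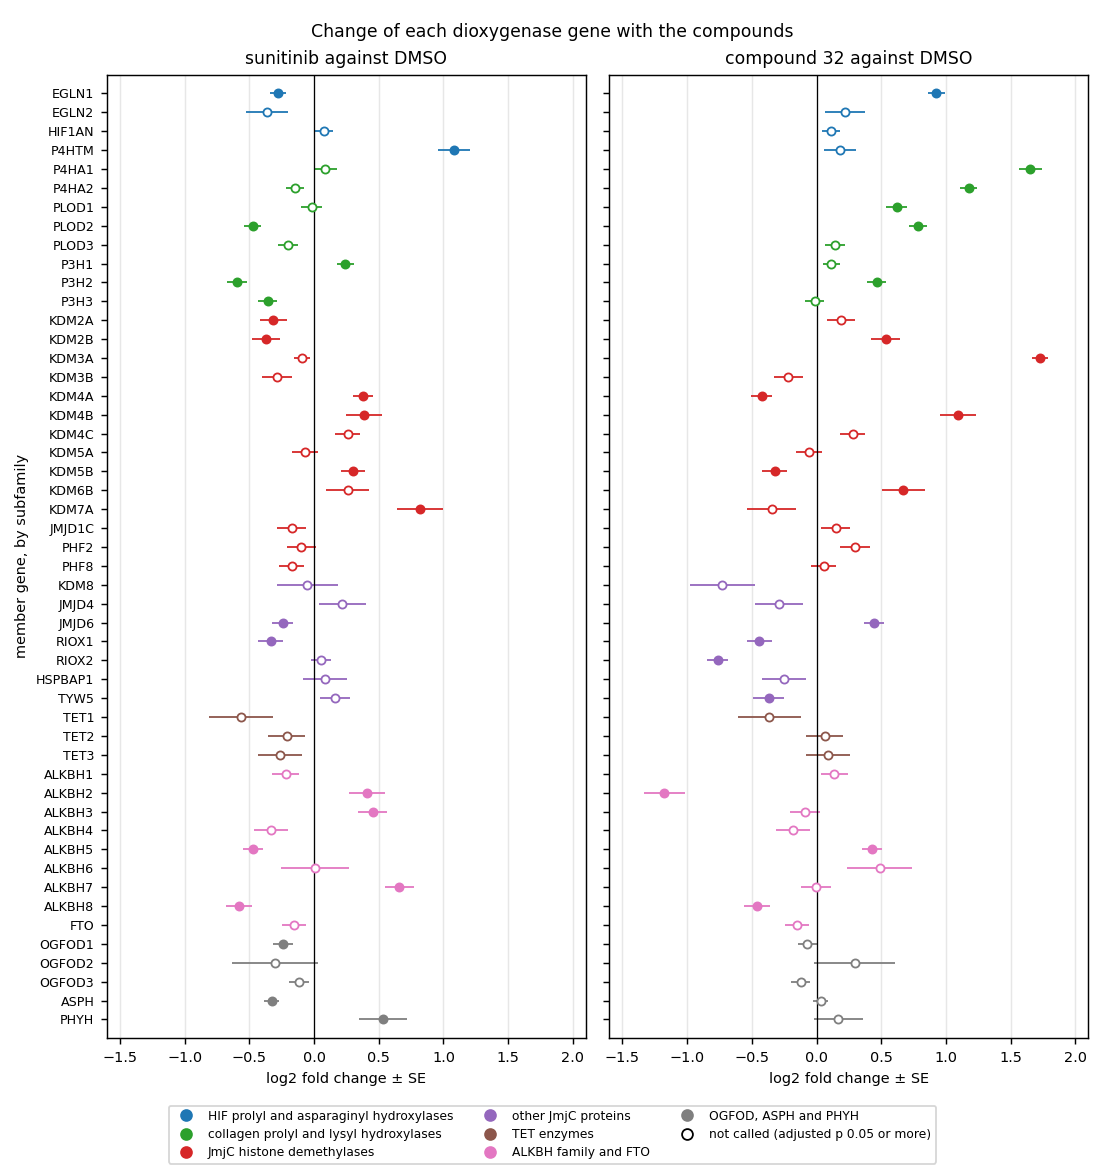
Log2 fold change of each tested member against DMSO for sunitinib and for compound 32 (points, with SE as lines; 3 libraries per group), ordered by group. KDM3A (1.72) and P4HA1 (1.65) lie farthest to the right with compound 32, and P4HTM (1.08) with sunitinib.

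Among the HIF hydroxylases, EGLN1, the main cellular oxygen sensor, rose with compound 32 and fell with sunitinib, while P4HTM, a membrane-bound prolyl hydroxylase of the endoplasmic reticulum, rose with sunitinib. EGLN1 (ENSG00000135766, chromosome 1 from 231363751 to 231425044) was at 62.1, 61.3 and 61.5 CPM in DMSO, 53.3, 51.5 and 47.7 CPM with sunitinib, and 116, 116 and 119 CPM with compound 32. The 3 groups did not overlap, with compound 32 highest and sunitinib lowest. The log2 fold change was 0.93 ± 0.06 (adjusted p = 2.24e-06) with compound 32 and -0.28 ± 0.06 (adjusted p = 0.00489) with sunitinib in edgeR. The share of EGLN1 in the summed level of the EGLN genes went from 89.9% ± 0.279 (SD, n = 3) in DMSO to 93.4% ± 0.331 with compound 32, and the sum per kilobase from 9.43 ± 0.10 to 17.3 ± 0.21 CPM. The RefSeq window of EGLN1 lies in an annotated exon of the gene over its whole length, as the stretch printed above does.

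P4HTM (ENSG00000178467, chromosome 3 from 48989886 to 49007154) was at 14.5, 19.9 and 18.5 CPM in DMSO, 36.6, 37.1 and 38.2 CPM with sunitinib, and 17.3, 20.3 and 22.4 CPM with compound 32. All 3 sunitinib libraries, replicate 3 included, lay above the other 6, and compound 32 overlapped DMSO. The log2 fold change was 1.08 ± 0.12 (adjusted p = 4.38e-05) with sunitinib and 0.18 ± 0.13 (adjusted p = 0.344) with compound 32 in edgeR. Its exons share 1.22% of their bases with WDR6 on the same strand, and WDR6 had a log2 fold change of -0.40 with sunitinib.

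The remaining HIF hydroxylases were not called against DMSO with all libraries. EGLN2, the paralogue with a mostly nuclear protein, was at 6.29, 5.88 and 5.79 CPM in DMSO, 3.86, 5.83 and 4.29 CPM with sunitinib, and 7.37, 6.57 and 6.99 CPM with compound 32, with sunitinib overlapping DMSO and compound 32 just above both. EGLN2 was called lower with sunitinib in the edgeR fit without sunitinib replicate 2 (-0.56, adjusted p = 0.015). Of its exon bases, 30.6% are shared with the read-through gene RAB4B-EGLN2. HIF1AN, which hydroxylates an asparagine of HIF and lowers its transcriptional activity, was at 116, 104 and 109.7 CPM in DMSO, 119, 119 and 108 CPM with sunitinib, and 125, 114 and 118 CPM with compound 32. The 3 groups overlapped, and the log2 fold changes were 0.07 with sunitinib and 0.11 with compound 32, the latter called without sunitinib replicate 3 (adjusted p = 0.0369). EGLN3 held only 14, 19 and 25 counts summed over the libraries of DMSO, sunitinib and compound 32, and it stayed below 1 CPM in every library. Neither EGLN3 nor P4HA3 was called in any comparison when the filter on low counts was dropped, and smaller changes were not detectable at this depth.

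The collagen hydroxylases gave the largest set of rises with compound 32. P4HA1 and P4HA2 are catalytic subunits of prolyl 4-hydroxylase, which stabilises the collagen triple helix. P4HA1 (ENSG00000122884, chromosome 10 from 73007217 to 73096974) was at 73.3, 66.3 and 78.3 CPM in DMSO, 74.7, 69.4 and 87.2 CPM with sunitinib, and 233, 224 and 228 CPM with compound 32. P4HA2 (ENSG00000072682, chromosome 5 from 132191838 to 132295315) was at 37.6, 35.7 and 36.1 CPM in DMSO, 34.4, 32.8 and 31.7 CPM with sunitinib, and 82.3, 79.5 and 85.4 CPM with compound 32. In both genes the compound 32 libraries lay well above all others, and the DMSO and sunitinib libraries lay close together. The log2 fold changes with compound 32 were 1.65 ± 0.09 (adjusted p = 4.21e-07) for P4HA1 and 1.18 ± 0.07 (adjusted p = 5.77e-07) for P4HA2, or 3.14 and 2.26 times the DMSO level. With sunitinib they were 0.09 ± 0.09 (adjusted p = 0.47) and -0.15 ± 0.07 (adjusted p = 0.109). The summed per-kilobase level of the P4HA genes went from 27.8 ± 2.01 CPM in DMSO (SD, n = 3) to 83.6 ± 1.55 CPM with compound 32 and was 28.8 ± 2.84 CPM with sunitinib. P4HA3, the third catalytic subunit, held 6, 7 and 19 counts summed over the libraries of DMSO, sunitinib and compound 32 and was not tested.

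The lysyl hydroxylases, which prepare collagen for cross-linking, differed among themselves. PLOD2 (ENSG00000152952, chromosome 3 from 146069440 to 146163653) was at 1072, 1031 and 1015 CPM in DMSO, 751, 733 and 762 CPM with sunitinib, and 1849, 1820.2 and 1696 CPM with compound 32. PLOD2 rose with compound 32 (0.78 ± 0.07, adjusted p = 1.19e-05) and fell with sunitinib (-0.47 ± 0.07, adjusted p = 1.97e-04), with no overlap between any of the 3 groups. PLOD1 was at 307, 311 and 316 CPM in DMSO, 321, 333 and 269.9 CPM with sunitinib, and 468, 466 and 501 CPM with compound 32, which is 0.62 ± 0.08 (adjusted p = 2.97e-04) with compound 32 and -0.02 ± 0.08 (adjusted p = 0.887) with sunitinib. PLOD3, which also transfers glucose to hydroxylysine, was not called against DMSO with either compound (log2 fold changes 0.14 with compound 32 and -0.20 with sunitinib), and without sunitinib replicate 3 it was called with both, at 0.14 and -0.13 (adjusted p = 0.0132 and 0.0393). The share of PLOD2 in the summed level of the PLOD genes was 64.7% ± 0.831 in DMSO, 57.9% ± 3.06 with sunitinib and 68.6% ± 1.86 with compound 32 (SD, n = 3).

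The prolyl 3-hydroxylases modify single prolines of collagen chains. P3H2 was at 31.1, 32.1 and 31.7 CPM in DMSO, 20.6, 22.6 and 19.6 CPM with sunitinib, and 44.5, 44.0 and 42.5 CPM with compound 32, with no overlap between the groups. Its log2 fold change was 0.46 ± 0.07 (adjusted p = 0.00113) with compound 32 and -0.59 ± 0.08 (adjusted p = 1.06e-04) with sunitinib. P3H1 rose slightly with sunitinib (0.24 ± 0.07, adjusted p = 0.0134), a call that was lost in 2 of 9 fits that left out a library, with an adjusted p of 0.0831 without DMSO replicate 3. P3H3 fell with sunitinib (-0.36 ± 0.07, adjusted p = 0.00195) and stood at -0.02 with compound 32. The share of P3H1 in the summed level of the P3H genes was 44.6% ± 1.44 in DMSO, 55.9% ± 1.96 with sunitinib and 44.5% ± 1.89 with compound 32 (SD, n = 3). The summed level of 4 fibroblast markers, genes that mark collagen-producing cells, was 10.3 to 11.4 CPM in DMSO, 19.1 to 21.6 CPM with sunitinib and 12 to 14.0 CPM with compound 32, with DCN and COL1A2 below 1 CPM in every library. Most of this sum was ACTA2, at a mean of 9.08, 18.5 and 10.3 CPM. COL1A1, a chain of type I collagen, was at 1.43, 1.38 and 1.80 CPM in DMSO, 0.847, 0.806 and 1.5 CPM with sunitinib, and 2.07, 3.00 and 3.65 CPM with compound 32. It rose with compound 32 (log2 fold change 0.92 ± 0.29, adjusted p = 0.0394), was not called with sunitinib (-0.56, adjusted p = 0.194), and was higher with compound 32 than with sunitinib by 1.48 (adjusted p = 0.00173). COL1A2 held 10, 16 and 3 counts summed over the libraries of DMSO, sunitinib and compound 32. It was thus lowest with compound 32, where COL1A1 was highest, and had too few counts to be tested. The part of these markers in the values of the collagen hydroxylases was not tested.

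**Figure D3:**
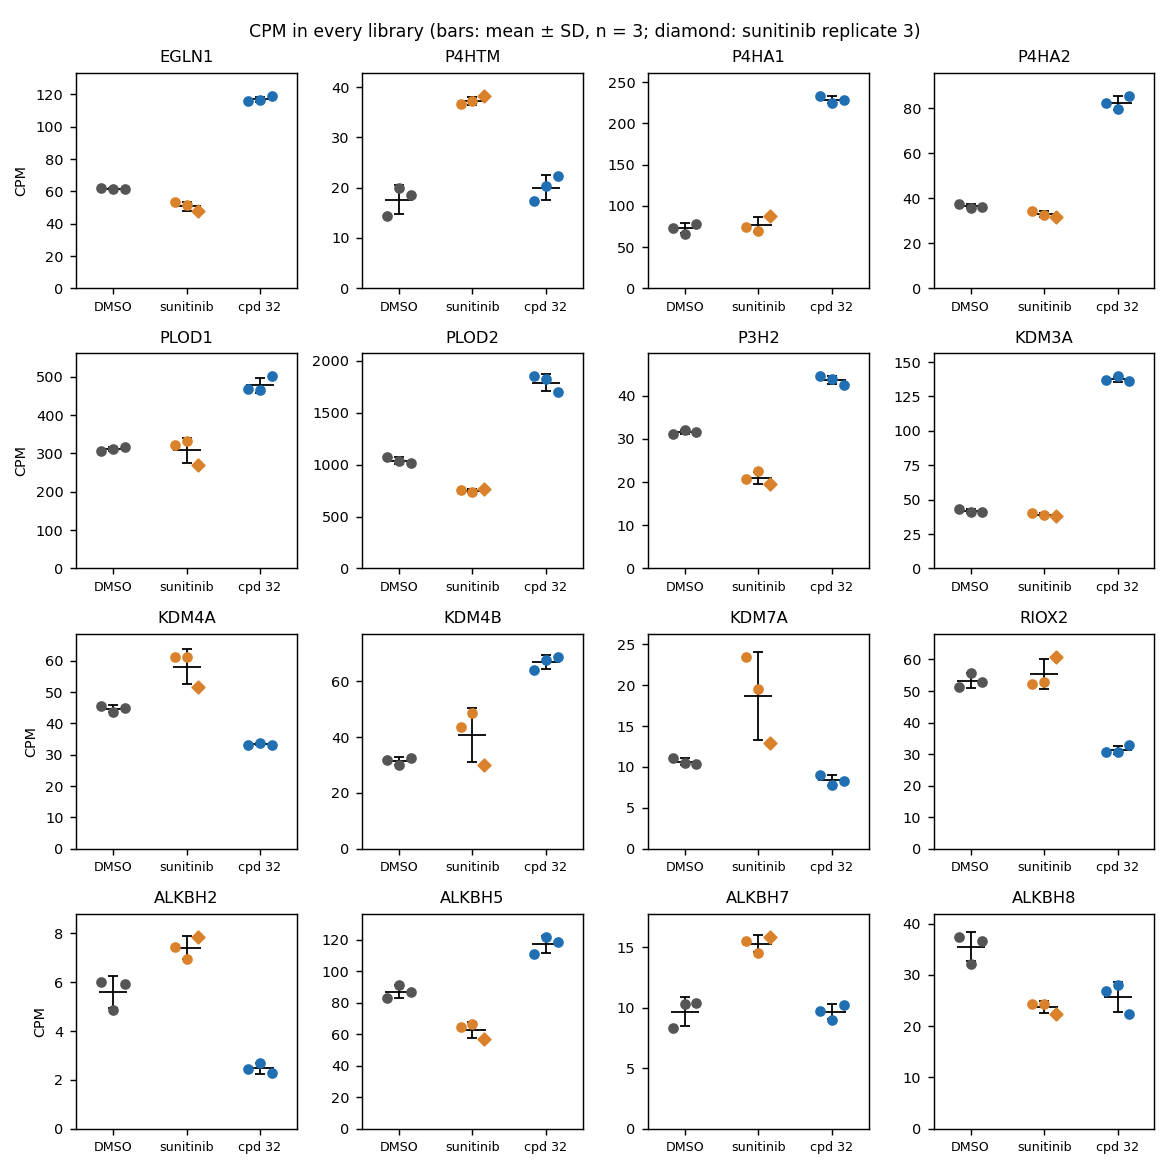
CPM of selected members in every library (circles; a diamond marks sunitinib replicate 3) for DMSO, sunitinib and compound 32, with bars at the mean and SD of 3 libraries and the vertical axis starting at 0. KDM3A stood at 136 to 139.6 CPM with compound 32 against 38.2 to 43.3 CPM in the other 6 libraries.

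Among the JmjC histone demethylases, which remove methyl groups from histone lysines, compound 32 raised 4 of 14 (KDM3A, KDM4B, KDM6B and KDM2B) and lowered 2 (KDM4A and KDM5B), which is 42.9% beside 22.3% of all genes. Sunitinib raised 4 (KDM4A, KDM4B, KDM5B and KDM7A) and lowered 2 (KDM2A and KDM2B), also 42.9%, which is close to the 40.2% of all genes. The count of 4 raised became 2 without DMSO replicate 1 or 2 and without sunitinib replicate 1 or 2. In sunitinib replicate 3, all 14 of these genes were at their lowest of the 3 sunitinib libraries, where 44.0% of all genes tested were. The median log2 ratio of replicate 3 to the mean of replicates 1 and 2 was -0.44 over these 14 genes and -0.01 over all genes. The median gene length was 10351.5 bases over the 14 and 4595 bases over all genes. Without that library, sunitinib against DMSO had 6 higher and 3 lower in this group, beside 3908 and 4096 of 15580 genes tested. Compound 32 against DMSO then had 8 higher and 4 lower, beside 3359 and 3189 of the same 15580 genes. With all libraries these were 1830 and 1571 of 15232 genes, so the calls over all genes grew as well. All 9 libraries share the filter, the scaling and an estimate of the spread, and what moved these counts was not tested.

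KDM3A (ENSG00000115548, chromosome 2 from 86440647 to 86492716) was at 43.3, 40.9 and 40.8 CPM in DMSO, 40.2, 38.8 and 38.2 CPM with sunitinib, and 137, 139.6 and 136 CPM with compound 32. It encodes a demethylase of histone H3 and had the largest fitted rise of the 50 tested members with compound 32. All 3 compound 32 libraries lay far above the other 6. Its log2 fold change was 1.72 ± 0.06 (adjusted p = 2.29e-08) with compound 32, or 3.30 times the DMSO level, and -0.09 ± 0.06 (adjusted p = 0.257) with sunitinib in edgeR. Its relatives KDM3B and JMJD1C were not called against DMSO with either compound. Without sunitinib replicate 3, KDM3B was called lower with compound 32 (-0.22, adjusted p = 6.96e-05) and with sunitinib (-0.14, adjusted p = 0.0185), and JMJD1C higher with compound 32 (0.15, adjusted p = 0.015). KDM3A went from 8.70% ± 0.29 (SD, n = 3) of the summed per-kilobase level of these 3 genes in DMSO to 24.2% ± 1.26 with compound 32.

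The KDM4 genes encode demethylases of trimethylated histone H3, and they moved in different directions. KDM4B (ENSG00000127663, chromosome 19 from 4969113 to 5153595) was at 31.8, 29.9 and 32.4 CPM in DMSO, 43.8, 48.7 and 30.1 CPM with sunitinib, and 64.0, 67.5 and 68.8 CPM with compound 32. Its compound 32 libraries lay above all others, while sunitinib replicate 3 lay inside the DMSO range and replicates 1 and 2 above it. KDM4B changed by 1.09 ± 0.14 (adjusted p = 2.47e-04) with compound 32 and 0.38 ± 0.14 (adjusted p = 0.0463) with sunitinib. The sunitinib call was lost in 8 of 9 fits that left out a library, with an adjusted p up to 0.178 without sunitinib replicate 2, and became 0.56 with an adjusted p of 1.25e-09 without sunitinib replicate 3. KDM4A (ENSG00000066135, chromosome 1 from 43650158 to 43705515) was at 45.7, 43.6 and 44.8 CPM in DMSO, 61.3, 61.3 and 51.6 CPM with sunitinib, and 33.2, 33.7 and 33.0 CPM with compound 32, with sunitinib highest, compound 32 lowest and no overlap. It changed by -0.42 ± 0.08 (adjusted p = 0.00317) with compound 32 and 0.38 ± 0.08 (adjusted p = 0.00262) with sunitinib. KDM4A shares 40.2% of its exon bases with the overlapping gene AL451062.3 on the same strand and 8.97% with KDM4A-AS1 on the other, so its counts are uncertain to that extent. KDM4B made up 16.4% ± 0.238 of the summed per-kilobase level of KDM4A, KDM4B and KDM4C in DMSO, 16.5% ± 2.17 with sunitinib and 33.2% ± 1.05 with compound 32 (SD, n = 3), while the sum was 13.0 ± 0.37, 16.7 ± 1.95 and 13.7 ± 0.10 CPM.

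KDM7A, a demethylase with a PHD finger, was at 11.1, 10.4 and 10.4 CPM in DMSO, 23.5, 19.6 and 12.9 CPM with sunitinib, and 9.05, 7.76 and 8.25 CPM with compound 32. The 3 sunitinib libraries were spread over a wide range but all lay above the DMSO libraries, and the compound 32 libraries lay below the DMSO libraries. The log2 fold change with sunitinib was 0.82 ± 0.18 (adjusted p = 0.00361), and 1.02 without sunitinib replicate 3. With compound 32 it was -0.35 ± 0.19 (adjusted p = 0.223), and -0.35 with an adjusted p of 0.0139 without that library. KDM6B, which removes a mark of Polycomb silencing, was at 18, 19.2 and 20.2 CPM in DMSO, 26.6, 26.5 and 15.6 CPM with sunitinib, and 31.7, 30.2 and 29.6 CPM with compound 32, with sunitinib replicate 3 below and replicates 1 and 2 above every DMSO library. It rose with compound 32 (0.67 ± 0.16, adjusted p = 0.0126), a call that held in 16 of 19 alternatives, with an adjusted p of 0.0584 without DMSO replicate 1 and 0.0508 without compound 32 replicate 1. With sunitinib it was 0.26 ± 0.17 (adjusted p = 0.231), and 0.47 with an adjusted p of 8.5e-06 without sunitinib replicate 3.

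KDM2B, a CpG island binding partner of Polycomb complexes, was at 52.4, 50.9 and 53.3 CPM in DMSO, 44.2, 44.8 and 31.9 CPM with sunitinib, and 77.6, 75.8 and 73.2 CPM with compound 32. The 3 groups did not overlap, and sunitinib replicate 3 was the lowest library. It rose with compound 32 (0.53 ± 0.11, adjusted p = 0.00489) and fell with sunitinib (-0.37 ± 0.11, adjusted p = 0.019), the latter call holding in 13 of 19 alternatives. It was lost without DMSO replicate 1 (adjusted p = 0.0521) or 3 (0.0573), with upper-quartile factors (0.0511), library totals (0.0667) or only the 6 libraries compared (0.0578), and at a threshold of 0.01. Its paralogue KDM2A was at 199, 199 and 203 CPM in DMSO, 173, 182 and 128 CPM with sunitinib, and 232, 232 and 223 CPM with compound 32, and its fall with sunitinib (-0.31 ± 0.11, adjusted p = 0.0362) was lost in 6 of 9 fits without a library, with an adjusted p up to 0.0899 without DMSO replicate 3. KDM5B, which removes a mark of active promoters, was at 52.0, 52.9 and 60.2 CPM in DMSO, 70.1, 73.8 and 59.7 CPM with sunitinib, and 46.6, 42.6 and 42.6 CPM with compound 32. Sunitinib replicate 3 lay inside the DMSO range, and compound 32 lay below it. The log2 fold change was 0.30 ± 0.09 (adjusted p = 0.0212) with sunitinib and -0.32 ± 0.09 (adjusted p = 0.0279) with compound 32, and each of these calls was lost in 4 of 9 such fits, with adjusted p up to 0.0985 without DMSO replicate 1 and 0.127 without DMSO replicate 3. KDM4C, KDM5A, PHF2 and PHF8 were not called against DMSO with either compound. Without sunitinib replicate 3, PHF2 was called higher with compound 32 (0.30, adjusted p = 3.35e-05), as it was with only the 6 libraries compared (5.51e-05) and with no filter on low counts (0.0201). KDM4C was then called higher with compound 32 (0.28, adjusted p = 0.00325) and with sunitinib (0.32, adjusted p = 0.00137), and in some other alternatives with each compound. KDM2A was also called higher with compound 32 there (0.19, adjusted p = 3.27e-05).

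**Figure D4:**
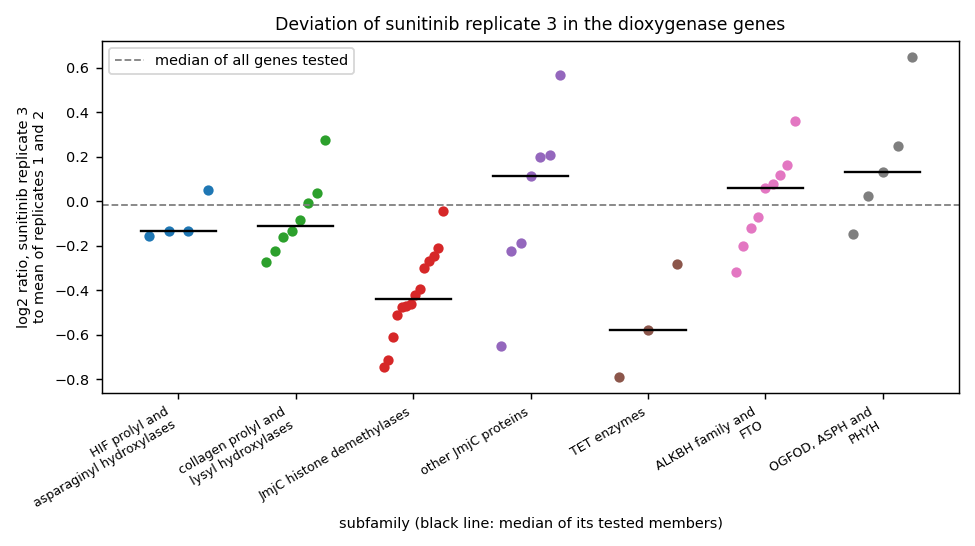
Log2 ratio of sunitinib replicate 3 to the mean of sunitinib replicates 1 and 2 for each tested member (points) by group, with a black line at each group's median. All 14 JmjC histone demethylases and all 3 TET enzymes lie below 0, with medians of -0.44 and -0.58.

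The other JmjC proteins act mostly on non-histone substrates. RIOX2, a ribosomal histidine hydroxylase, was at 51.2, 55.8 and 52.9 CPM in DMSO, 52.2, 53.0 and 60.9 CPM with sunitinib, and 30.6, 30.7 and 32.9 CPM with compound 32. Its compound 32 libraries lay below all 6 others, with a log2 fold change of -0.77 ± 0.08 (adjusted p = 5.8e-05), and it stood at 0.05 ± 0.08 (adjusted p = 0.615) with sunitinib. Of its exon bases 27.6% overlap CRYBG3 on the opposite strand, and no source used here says whether counting used strand. RIOX1, which hydroxylates another ribosomal protein, fell with compound 32 (-0.44 ± 0.10, adjusted p = 0.00755) and with sunitinib (-0.33 ± 0.10, adjusted p = 0.0168), where the call held in 15 of 19 alternatives and the adjusted p was 0.0604 without DMSO replicate 3. JMJD6, a lysyl hydroxylase of splicing factors, was at 60.4, 66.1 and 58.6 CPM in DMSO, 51.6, 49.8 and 55.0 CPM with sunitinib, and 83.7, 77.5 and 90.7 CPM with compound 32. The 3 groups did not overlap, with compound 32 highest. It rose with compound 32 (0.44 ± 0.08, adjusted p = 0.0022) and fell with sunitinib (-0.24 ± 0.08, adjusted p = 0.0307), the latter call holding in 10 of 19 alternatives, with an adjusted p of 0.113 without DMSO replicate 2 and 0.129 with upper-quartile factors.

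TYW5, which hydroxylates a modified base of a transfer RNA, was at 14.3, 12 and 11.8 CPM in DMSO, 13.8, 13.3 and 15.6 CPM with sunitinib, and 9.96, 10.6 and 8.96 CPM with compound 32. The compound 32 libraries lay below the other 6. Its fall with compound 32 (-0.37 ± 0.12, adjusted p = 0.045) was lost in 7 of 9 fits without a library, with an adjusted p up to 0.169 without DMSO replicate 1. KDM8 was at 3.24, 3.54 and 2.51 CPM in DMSO, 3.55, 3.35 and 2.02 CPM with sunitinib, and 1.94, 2.07 and 1.61 CPM with compound 32, with a log2 fold change of -0.73 ± 0.25 (adjusted p = 0.06) with compound 32. The value missed the threshold with all libraries and passed it without sunitinib replicate 3 (adjusted p = 0.0091). JMJD4, which hydroxylates the translation termination factor ETF1, was at 6.42, 6.54 and 5.85 CPM in DMSO, 7.83, 7.5 and 6.5 CPM with sunitinib, and 3.56, 5.51 and 6.28 CPM with compound 32, with 1 of the 3 compound 32 libraries inside the DMSO range and the other two below it. It was not called against DMSO, and 53.8% of its exon bases overlap SNAP47 on the opposite strand. HSPBAP1, named for its binding to a heat shock protein, was not called either.

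None of the 3 TET enzymes was called with either compound in edgeR, at an unadjusted p of 0.0411 at the least. TET3 was at 77.4, 70.9 and 81.0 CPM in DMSO, 72.9, 75.2 and 42.7 CPM with sunitinib, and 81.6, 87.8 and 74.2 CPM with compound 32. TET2 was at 31.9, 37.1 and 39.9 CPM in DMSO, 35.5, 34.9 and 23.4 CPM with sunitinib, and 37.2, 40.2 and 36.3 CPM with compound 32. In both, sunitinib replicate 3 was the lowest of all 9 libraries. For TET3 the other 8 overlapped between treatments. For TET2 all sunitinib libraries lay below all compound 32 libraries, and the DMSO libraries overlapped both groups. TET1 was at 2.66, 2.22 and 2.12 CPM in DMSO, 2.01, 1.36 and 1.3 CPM with sunitinib, and 2.13, 1.81 and 1.49 CPM with compound 32, with a log2 fold change of -0.56 ± 0.25 (adjusted p = 0.087) with sunitinib. In 3 alternatives a TET enzyme was called. TET2 and TET3 were higher with compound 32 than with sunitinib with no filter on low counts (adjusted p = 0.0119 and 0.0276), TET3 also without sunitinib replicate 2 (adjusted p = 0.049), and TET1 was lower with sunitinib than in DMSO without sunitinib replicate 1 (adjusted p = 0.0369).

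Of the 9 genes of the ALKBH family and FTO, which reverse methylation of DNA and RNA bases or modify proteins, 1 rose and 2 fell with compound 32 (33.3%, beside 22.3% of all genes), and 3 rose and 2 fell with sunitinib (55.6%, beside 40.2%). ALKBH2 (ENSG00000189046, chromosome 12 from 109088188 to 109093631), a DNA repair demethylase, was at 6.03, 4.86 and 5.92 CPM in DMSO, 7.46, 6.94 and 7.87 CPM with sunitinib, and 2.46, 2.69 and 2.27 CPM with compound 32. The compound 32 libraries lay below all DMSO libraries and the sunitinib libraries above them. ALKBH2 held 266, 374 and 119 counts summed over the 3 libraries of DMSO, sunitinib and compound 32. The log2 fold change was -1.18 ± 0.16 (adjusted p = 3.25e-04) with compound 32 and 0.41 ± 0.14 (adjusted p = 0.034) with sunitinib. The fall with compound 32 was called in all 19 alternatives, and the rise with sunitinib was lost in 6 of 9 fits that left out a library, with an adjusted p up to 0.139 without DMSO replicate 2 and a log2 fold change of 0.37 (adjusted p = 0.0676) without sunitinib replicate 3.

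ALKBH5 was at 83.0, 91.2 and 86.8 CPM in DMSO, 64.4, 66.7 and 56.9 CPM with sunitinib, and 111, 122 and 118 CPM with compound 32, with compound 32 highest, sunitinib lowest and no overlap. It rose with compound 32 (0.43 ± 0.08, adjusted p = 0.00207) and fell with sunitinib (-0.47 ± 0.08, adjusted p = 5.14e-04). ALKBH8, a methyltransferase and hydroxylase of transfer RNA, was at 37.4, 32.2 and 36.7 CPM in DMSO, 24.3, 24.4 and 22.4 CPM with sunitinib, and 26.8, 28.0 and 22.4 CPM with compound 32, below the DMSO libraries with both compounds. It fell by 0.46 with compound 32 and by 0.58 with sunitinib on the log2 scale (adjusted p = 0.00671 and 8.19e-04). ALKBH7, a mitochondrial protein that takes part in programmed necrosis, was at 8.30, 10.3 and 10.4 CPM in DMSO, 15.5, 14.5 and 15.9 CPM with sunitinib, and 9.76, 9.01 and 10.2 CPM with compound 32. It rose with sunitinib (0.66 ± 0.11, adjusted p = 8.14e-04) and was at -0.00 with compound 32, and 7.15% of its exon bases overlap PSPN. ALKBH3 was at 21.3, 21.2 and 19.3 CPM in DMSO, 25.4, 26.2 and 33.3 CPM with sunitinib, and 18, 19.9 and 20.3 CPM with compound 32 and rose with sunitinib (0.46 ± 0.11, adjusted p = 0.00719).

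FTO, which demethylates adenosines in RNA as ALKBH5 does, was not called. Its log2 fold change was -0.15 with compound 32 and -0.16 with sunitinib. ALKBH1, ALKBH4 and ALKBH6 were not called against DMSO either, though without sunitinib replicate 3 ALKBH1 (-0.28, adjusted p = 0.0491) and ALKBH4 (-0.36, adjusted p = 0.0431) were called lower with sunitinib.

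In the group of OGFOD, ASPH and PHYH, no member was called with compound 32, where the log2 fold changes ran from -0.12 for OGFOD3 to 0.29 for OGFOD2. ASPH fell with sunitinib (-0.33 ± 0.06, adjusted p = 0.0011), from 726 ± 8.89 CPM in DMSO (SD, n = 3) to 578 ± 5.61 CPM. OGFOD1, a ribosomal prolyl hydroxylase, also fell (-0.24 ± 0.07, adjusted p = 0.0249), a call that held in 12 of 19 alternatives, with an adjusted p of 0.0894 without sunitinib replicate 1 and 0.119 with upper-quartile factors. PHYH, the peroxisomal enzyme that hydroxylates phytanoyl-CoA, was at 10.9, 10.6 and 11.7 CPM in DMSO, 13.8, 13.1 and 21.4 CPM with sunitinib, and 12.3, 10.3 and 14.7 CPM with compound 32. Sunitinib replicate 3 was its highest library, and compound 32 overlapped both other groups. Its rise with sunitinib (0.54 ± 0.19, adjusted p = 0.0382) was lost in 5 of 9 fits that left out a library, and was 0.28 with an adjusted p of 0.0529 without sunitinib replicate 3.

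Compared directly, compound 32 and sunitinib differed in 30 of the 50 tested members, which is 60%, where 49.2% of all genes were called. Of these, 19 were higher with compound 32 and 11 lower, and 24.1% and 25.2% of all genes were. All 50 members were compared, with p-values adjusted over the 15232 genes tested. The median was 0.21 over the members and -0.03 over all genes. At 2-fold or more 8 of the 50 tested members differed, against 2050 of the 15232 genes tested (13.5%). Without sunitinib replicate 3, 21 were higher and 13 lower, beside 4620 and 4519 of 15580 genes tested, and all 30 calls held. Upper-quartile scaling gave 18 and 12 members, beside 3008 and 4712 of all genes against 3664 and 3834 with TMM. KDM3A was higher with compound 32 by 1.82 (95% interval 1.68 to 1.95), P4HA1 by 1.57 (95% interval 1.37 to 1.76) and P4HA2 by 1.32 (95% interval 1.17 to 1.47) on the log2 scale. PLOD2 differed by 1.26 (95% interval 1.11 to 1.40) and EGLN1 by 1.2 (95% interval 1.06 to 1.34). P3H2 differed by 1.06 (95% interval 0.89 to 1.22).

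The collagen hydroxylases differed in 7 of 8 tested members, all higher with compound 32, with a median of 0.85. Over all genes 49.2% were called in this comparison, 24.1% of all genes being higher with compound 32. P3H1 was the exception, at -0.13 (95% interval -0.27 to 0.02), and it was called lower with compound 32 under upper-quartile scaling (adjusted p = 0.0172), with library totals (0.0378) and without sunitinib replicate 3 (0.0287). Among members lower with compound 32 than with sunitinib, the log2 difference was -1.58 (95% interval -1.92 to -1.25) for ALKBH2 and -1.17 (95% interval -1.57 to -0.77) for KDM7A. It was -0.90 (95% interval -1.16 to -0.63) for P4HTM and -0.82 (95% interval -0.99 to -0.64) for RIOX2. KDM4A followed at -0.80 (95% interval -0.98 to -0.63), KDM5B at -0.63 (95% interval -0.83 to -0.42), ALKBH7 at -0.66 (95% interval -0.91 to -0.41), ALKBH3 at -0.54 (95% interval -0.79 to -0.30) and TYW5 at -0.53 (95% interval -0.79 to -0.28). KDM2B and ALKBH5 were each higher with compound 32 by 0.90, KDM4B by 0.71 and JMJD6 by 0.69. EGLN2 was also higher, by 0.59 (95% interval 0.24 to 0.93), although with all libraries it was called against DMSO with neither compound. The differences in KDM8 and JMJD4 were lost in 7 of 9 fits without a library, with adjusted p up to 0.15 without sunitinib replicate 1 and 0.132 without compound 32 replicate 1. Those in JMJD1C and ALKBH1 were lost in 2 of 9, with adjusted p up to 0.122 without compound 32 replicate 1 and 0.055 without compound 32 replicate 3.

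No difference passed the test in 20 members, and the intervals show how large a difference these libraries allow. For FTO the difference was 0.01, with a 95% interval from -0.20 to 0.21. For HIF1AN it was 0.04, from -0.11 to 0.19, and for KDM4C 0.02, from -0.19 to 0.23. KDM5A, at 0.01 from -0.21 to 0.23, changed direction and was called at -0.11 (adjusted p = 0.0483) without sunitinib replicate 3. For TET1, with few counts, the interval was wide, from -0.35 to 0.75. For KDM6B the difference was 0.41, with a 95% interval from 0.06 to 0.76, and it just missed the threshold in edgeR (adjusted p = 0.0528). KDM6B was called higher with compound 32 in some alternatives, such as DESeq2 (adjusted p = 0.0348) and limma voom (adjusted p = 0.0418). In all, 14 of the 50 members were called in none of the 3 comparisons, namely HIF1AN, KDM3B, KDM4C, KDM5A, PHF8, HSPBAP1, the 3 TET enzymes, ALKBH4, ALKBH6, FTO, OGFOD2 and OGFOD3. Their log2 fold changes ran from -0.56 (TET1) to 0.26 (KDM4C) with sunitinib and from -0.36 (TET1) to 0.49 (ALKBH6) with compound 32. Of these 14, 9 were called in at least 1 comparison under at least 1 alternative, and HSPBAP1, ALKBH6, FTO, OGFOD2 and OGFOD3 were called in none.

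**Figure D5:**
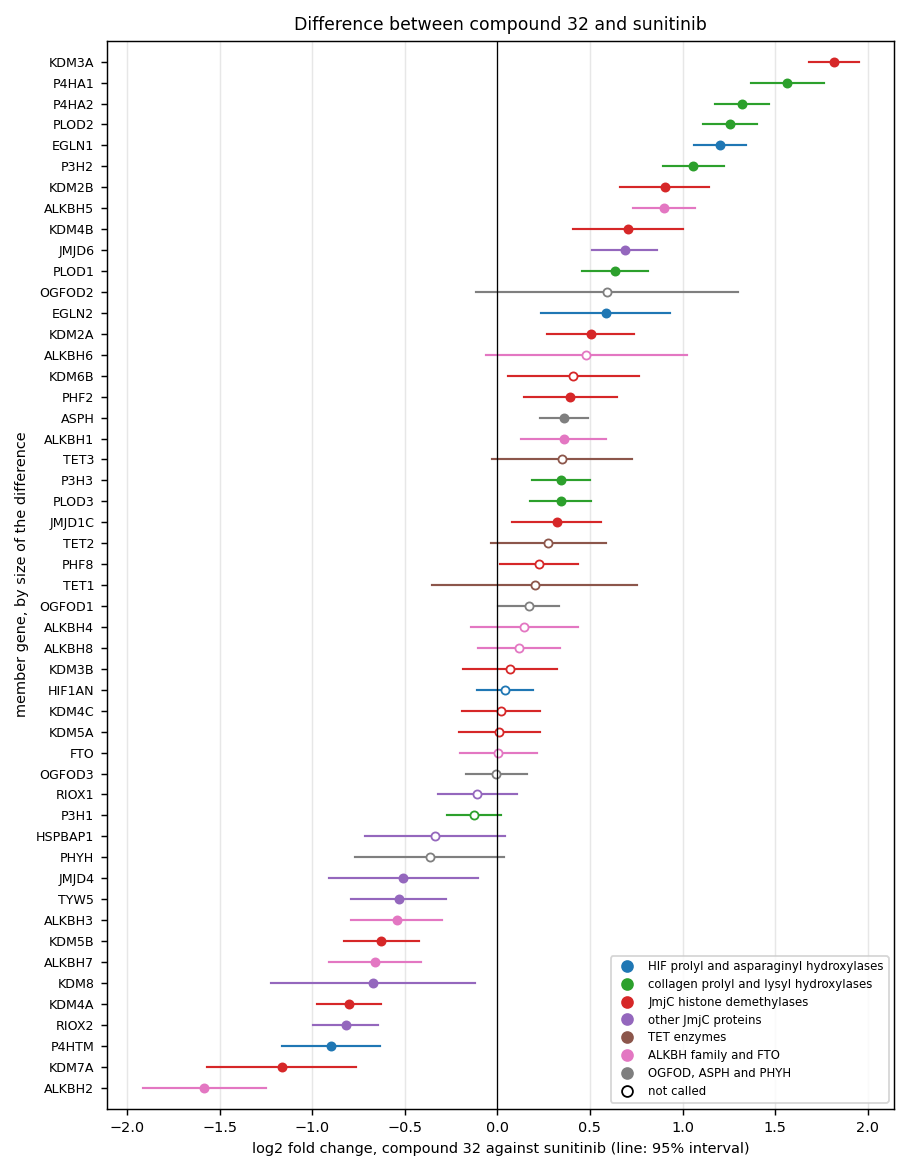
Log2 fold change of each tested member with compound 32 against sunitinib (points), with 95% intervals as lines, sorted by size. KDM3A (1.82) is at the end of the members that were higher with compound 32 and ALKBH2 (-1.58) at the opposite end, while FTO (0.01) and HIF1AN (0.04) lie near 0.

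Other genes around these enzymes were described through 5 lists of 57 genes, of which 52 were tested. Against DMSO, sunitinib raised 14 and lowered 13 of them, and compound 32 raised 7 and lowered 5. These are 51.9% of them with sunitinib, where 40.2% of all genes were called, and 23.1% with compound 32, close to the 22.3% of all genes. Of the HIF subunits and the VHL ligase, with 8 tested, EPAS1, which encodes HIF-2 alpha, rose with sunitinib (log2 fold change 1.5 ± 0.09, adjusted p = 4.1e-07) and with compound 32 (0.74 ± 0.09, adjusted p = 1.92e-04). HIF1A fell slightly with both (-0.26 and -0.23), and in this list sunitinib raised 3 and lowered 1, and compound 32 raised 1 and lowered 1 (50% and 25%, beside the same 40.2% and 22.3%). These are mRNA levels, and HIF alpha subunits are mainly regulated as proteins.

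Among partners of the collagen hydroxylases, SERPINH1, the collagen chaperone HSP47, rose with sunitinib (0.81 ± 0.06, adjusted p = 1.42e-06) and P4HB, the second subunit of prolyl 4-hydroxylase, rose with compound 32 (0.49, adjusted p = 2.62e-04). Of 8 tested partners, 4 rose with sunitinib and P4HB was the 1 called with compound 32. These are 50% and 12.5%, beside 40.2% and 22.3% of all genes. The list of 2-oxoglutarate, succinate and fumarate metabolism, with 23 tested genes, bears on the substrate and product of these enzymes. Of its genes 6 rose and 8 fell with sunitinib and 3 rose and 1 fell with compound 32. That is 60.9% beside 40.2% of all genes with sunitinib, and 17.4%, below the 22.3% of all genes, with compound 32. PSAT1 (1.45 ± 0.09) and PHGDH (1.19 ± 0.07), enzymes of serine synthesis, and IDH1 (0.78 ± 0.08), which makes 2-oxoglutarate in the cytosol, rose with sunitinib, while IDH3A, a mitochondrial counterpart, fell (-0.63 ± 0.07). With compound 32, IDH2 (1.16 ± 0.12), the mitochondrial NADP-dependent isocitrate dehydrogenase, rose. In edgeR the adjusted p of these 5 genes was at most 5.41e-05, that of IDH3A.

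For iron delivery and ascorbate uptake, TFRC, the transferrin receptor, fell with sunitinib (-0.89 ± 0.08, adjusted p = 5.51e-06) and rose with compound 32 (0.71 ± 0.08, adjusted p = 7.26e-05). PCBP1, an iron chaperone that delivers iron to prolyl hydroxylases, fell with sunitinib (-0.70 ± 0.09). Of the 8 genes of that list, 4 fell and 0 rose with sunitinib, and 2 rose and 2 fell with compound 32, which is 50% in each case, beside 40.2% and 22.3% of all genes. Of 5 tested dioxygenases outside the 52, PHYHD1 rose with sunitinib (0.86 ± 0.13) and KDM4D fell with compound 32 (-0.79 ± 0.19, adjusted p = 0.0119).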

How the data were processed

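RNA of HEYA8 cells was measured after 24 h with DMSO, sunitinib or compound 32 (3 libraries each), as polyadenylated RNA captured on oligo(dT) beads, per the labels' protocols. The authors deposited raw read counts per gene, as whole numbers, in a single table. Per the submitters' processing notes, fastp, HISAT2 2.0.5, featureCounts, DESeq2 and edgeR were used, and hg38 and mm10 are listed as builds with no role. All 58735 genes of the table had the identifiers, names and coordinates of GENCODE release 29 (GRCh38). No source used here says whether counting used strand or what was done with multi-mapping reads.

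Genes were filtered with filterByExpr, which left 15232, and scaled by TMM. Groups were compared in a quasi-likelihood F test of edgeR 4.0.16 under R 4.3.3, with robust estimation and 6 residual degrees of freedom over all 9 libraries, with Benjamini-Hochberg adjustment over all genes tested and a threshold of 0.05. Log2 fold changes are given ± their standard error. CPM per kilobase used the gene length in the deposited table, so it is a length of all annotated exons. Library totals of 15498101 to 18006171 counts set the precision for low genes such as EGLN3 and P4HA3.

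Pairs of libraries of a group differed by more than sampling noise (chi-square per degree of freedom at least 1.82, and 41.3 and 40.3 for the pairs with sunitinib replicate 3), so no pair was taken to be a single library deposited again. This does not show that they came from separate cultures. The members and lists were chosen with earlier results of these data known. Values in every library are printed for members called in some comparison at an absolute log2 fold change of at least 0.5 and a mean of at least 1 CPM in some group, and for the HIF hydroxylases. Genes of the pathway lists are named if called at that size, up to 4 per list, except 1 that is counted in its list but not reported here, and HIF1A and P4HB were named after their values were seen. Alternatives were other scalings and filters, DESeq2 1.42.0, limma 3.58.1 voom, a replicate block, only the 6 libraries compared, a threshold of 0.01 and leaving out each library. Promoter letters come from RefSeq (GRCh38.p14), and 46 of 67 start sites were found in a GENCODE transcript of the gene in sense and 0 in antisense.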

Additional observations from a re-analysis of the deposited data

How the results depend on the processing

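Of 19 alternatives, those that moved a count of called members by over 1.5 times were the following. For sunitinib against DMSO, 10 members were higher and 12 lower, and a threshold of 0.01 gave 5 and 7, upper-quartile factors 7 lower, library totals 7 lower, and only the 6 libraries compared 6 higher. Leaving out each library in turn gave 5 to 10 higher and 8 to 16 lower. For compound 32 against DMSO, 12 members were higher, and only the 6 libraries compared gave 19. Leaving out each library gave 11 to 19 higher, the 19 without sunitinib replicate 3, and 5 to 10 lower. Over all genes, that comparison called 1830 higher and 1571 lower, and 3258 and 3114 with only the 6 libraries compared, and 977 and 738 at a threshold of 0.01. For compound 32 against sunitinib the counts stayed within 1.5 times of 19 and 11.

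The calls of 16 of the 19 members against DMSO with compound 32 held in all 19 alternatives, the exceptions being KDM5B (13), KDM6B (16) and TYW5 (7). For KDM5A, compound 32 against sunitinib ranged from -0.1067 to 0.0773 over the fits that left out a library, and its direction changed without sunitinib replicate 3. In 52 other pairs of a member and an alternative, a value that was called in neither fit changed sign. Upper-quartile factors put the median of all genes at 0.10 for sunitinib against DMSO and -0.12 for compound 32 against sunitinib. Where the cause of such a move is not given by fewer samples or genes, it was not tested.

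A block for the replicate number gave 12 higher and 6 lower for compound 32 against DMSO, 8 and 11 for sunitinib against DMSO, and 19 and 11 between the compounds. Libraries with the same number did not deviate together (correlations across genes from -0.08 to 0.06), so the numbers were not taken as pairs. Depth limited EGLN3 and P4HA3, and a single cell line and an unknown dose limit every comparison.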
